A study of Saccharomyces cerevisiae with 6 samples.

Results

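The small-subunit (SSU) processome and 40S assembly factors are the proteins that build the small ribosomal subunit of budding yeast, *Saccharomyces cerevisiae*. The 48 genes described here were chosen by function, from a list of gene identifiers for the U3 processome, the box C/D core proteins, and 40S assembly factors. They are 48 of the 6461 genes in the count table, and all 48 had enough counts to be tested. Total RNA was measured by 3′-Tag-seq (QuantSeq), which primes on poly(A) and counts reads near mRNA ends, in 2 biological replicates at each of 3 temperatures, 6 libraries in all. Cultures at 25°C and 30°C grew in rich medium (YPD) at that temperature to an optical density of about 1. The 37°C cultures were first grown at 25°C to the same density, mixed 1 to 1 with pre-warmed medium, and kept at 37°C for 2 h in all, first in a water bath and then in a shaker. Every culture was of 1 strain in the BY4741/2 background that carries CBP80-PPX-PrA and SNAPf-YRA1, that is, the cap-binding protein Cbp80 with a protein A tag and the mRNA export adaptor Yra1 with a SNAP tag. Medium and temperature changed together at 37°C, so their effects cannot be told apart. The comparisons ask how the mRNAs of these factors differ after 2 h at 37°C from growth at 25°C or 30°C.

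Ribosome assembly starts in the nucleolus, where the SSU processome forms on the growing precursor of ribosomal RNA (rRNA). The U3 small nucleolar RNA, carried by box C/D proteins, pairs with the precursor, the UtpA, UtpB, and UtpC complexes fold and hold it, and helicases, a GTPase, and modifying enzymes drive the steps that release a pre-40S particle. In yeast these genes belong to the ribosome biogenesis regulon, whose promoters are known for the PAC and RRPE elements and whose mRNAs are known to fall for a time after many stresses.

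The promoters of the genes were examined first, because the rule that chose the genes made no use of sequence. The letters searched were GATGAG for PAC and AAAATTTT for RRPE, on both strands, from 250 bases before to 50 bases after the first base of the start codon (RefSeq genome, build R64). The annotation holds no untranslated regions, so distances run from the start codon. PAC letters were found in 44 of the 48 windows, against 20.4% of 6001 nuclear protein-coding genes. RRPE letters were found in 36 windows, against 9.03% of those genes, and 34 windows held both, against 4.38%. A PAC match and an RRPE match cannot overlap, since neither begins with the letters that end the other. A match describes letters only.

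The following stretches show the closest PAC and RRPE pair in some of the genes named with values below. Others named there, such as RRP3 and DHR2, which had PAC letters without RRPE letters, are not shown. The stretches read 5′ to 3′ on the strand of the gene, with the 2 motifs in capitals (CTCATC is PAC on the other strand).
KRR1 promoter, chrIII:23456-23486, minus strand: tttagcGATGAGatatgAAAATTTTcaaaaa
NOP56 promoter, chrXII:545964-546000, plus strand: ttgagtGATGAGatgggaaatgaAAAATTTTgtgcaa
NOP58 promoter, chrXV:898462-898488, minus strand: ttcaacCTCATCgAAAATTTTcagaaa
NOP1 promoter, chrIV:427133-427171, plus strand: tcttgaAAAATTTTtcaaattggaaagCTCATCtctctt
NAN1 promoter, chrXVI:310058-310100, plus strand: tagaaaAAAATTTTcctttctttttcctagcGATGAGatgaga
NOP14 promoter, chrIV:190706-190748, minus strand: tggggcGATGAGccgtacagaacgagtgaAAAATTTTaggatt
BMS1 promoter, chrXVI:143266-143297, minus strand: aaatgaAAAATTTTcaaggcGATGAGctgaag
RRP5 promoter, chrXIII:731268-731295, minus strand: ttttgaAAAATTTTaaGATGAGatgagc
UTP13 promoter, chrXII:581853-581891, minus strand: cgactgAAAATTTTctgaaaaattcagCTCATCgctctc
IMP4 promoter, chrXIV:485454-485492, plus strand: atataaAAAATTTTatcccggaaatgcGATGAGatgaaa
RRP7 and RRP9 each carried 1 of the motifs, which stands in capitals in these shorter stretches.
RRP7 promoter, chrIII:65689-65708, minus strand: aattggAAAATTTTtcactt
RRP9 promoter, chrXVI:802233-802250, plus strand: tttataGATGAGctttga
In the 34 genes with both motifs, the closest pair lay 1 to 41 bases apart (median 10), and RRPE was the upstream member of the pair in 27. Spacing and order were not measured in the other promoters with both motifs, so they cannot be called particular to these genes. Of 68 PAC matches in the 48 windows, 59 (86.8%) began between 160 and 60 bases before the start codon, as did 45.0% of 1441 PAC matches in all promoters. UTP22 (YGR090W) and EMG1 (YLR186W) had neither motif, and RRP7 (YCL031C) and UTP15 (YMR093W) had RRPE letters without PAC letters. In UTP4 (YDR324C), the PAC letters began after the start codon.

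**Figure D1:**
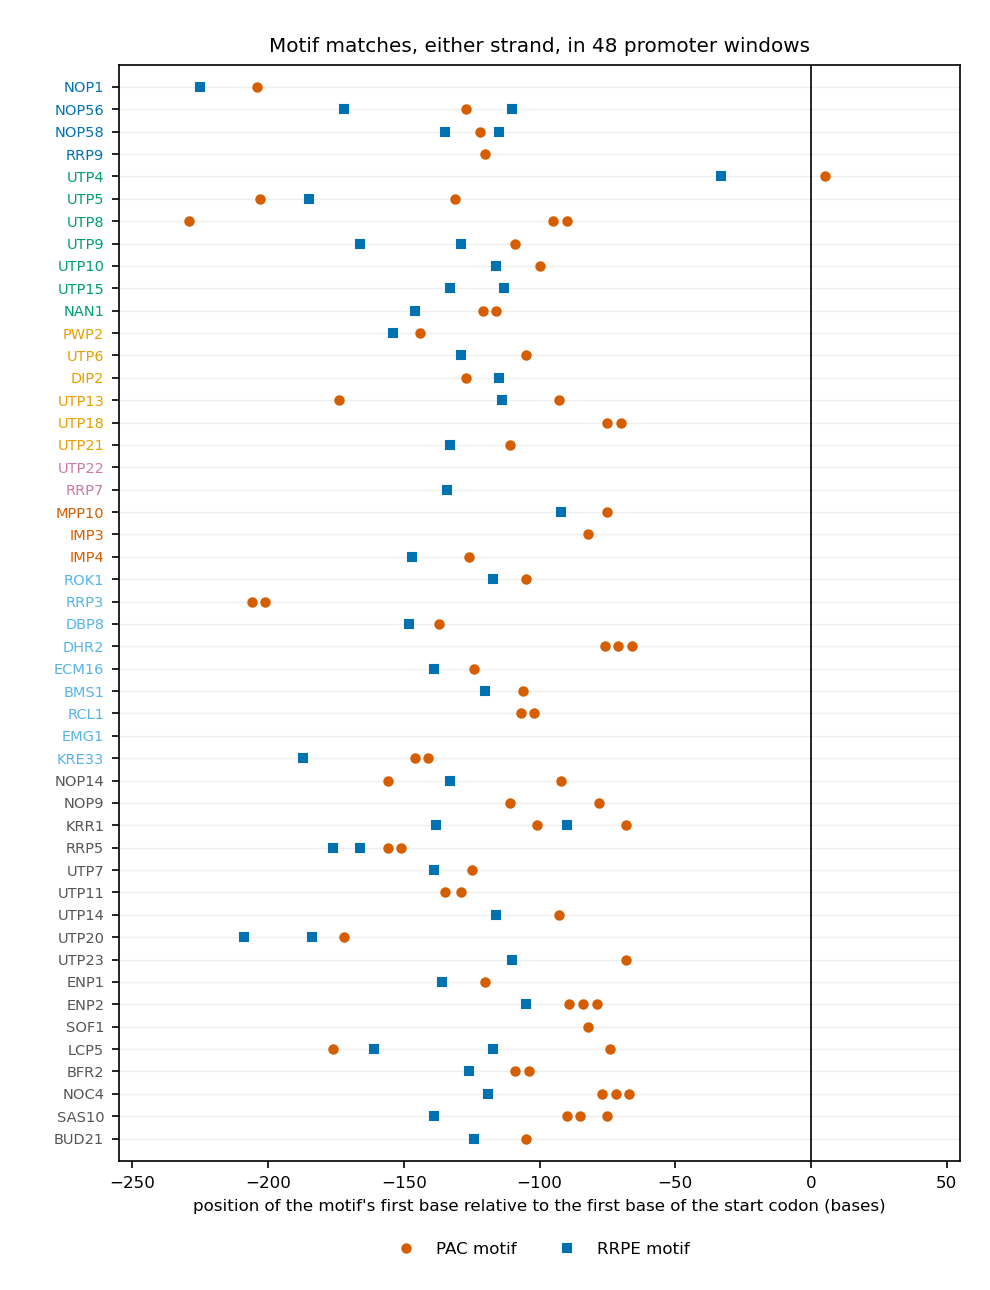
Position of each PAC (circles) and RRPE (squares) match in the promoter window of the 48 genes, in bases from the first base of the start codon, with gene names coloured by complex or role. Matches fell in 46 of the 48 windows and gathered between 160 and 60 bases before the start codon, where 59 of 68 PAC matches began.

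The same letters were common in the other assembly lists and rare in ribosomal protein genes. Both motifs were found in 45 of 62 promoters of 60S assembly factors, 14 of 20 of further processome factors, 10 of 15 of late 40S maturation factors, and 8 of 16 of RNA polymerase I genes. In 56 promoters of 40S ribosomal protein genes, PAC letters were found in 7, RRPE letters in 3, and both in 0.

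The libraries differed in depth. Counts in genes ran from 694502 to 1006632 in 5 libraries, and the first 25°C library held 184456, with 14.1% of its reads mapped to more than 1 place against 7.81% to 8.58% in the others. A single count was worth 5.86 CPM (counts per 1000000 counts in genes, with library sizes scaled by TMM) in that library and 0.935 to 1.41 CPM elsewhere, and 21 of the 48 genes had under 50 counts in it, against 2 to 4 genes in the other libraries. URA3, which the strain background lacks, had 0 counts in every library. Each of the 48 genes has 1 exon, and no other annotated gene overlaps any of them.

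Across the 48 genes, mRNA levels at 37°C were mostly below those at 25°C, but the main test (edgeR) called 0 of the 48. The median log2 fold change was −0.51, against 0.09 for all 5181 genes tested, and 41 of the 48 were below 0, as were 44.6% of all genes. Both 37°C libraries were below both 25°C libraries in 31 of the 48, against 23.2% of all genes, and above both in 2, against 29.4% of all genes. The fold changes spread by an SD of 0.52 among the 48 genes and 0.81 among all genes. edgeR's quasi-likelihood test called 0 of the 48 at an adjusted p below 0.05 with a fold change above 2, and 0% of all genes. At an unadjusted p below 0.05 in the same edgeR fit, 6 of the 48 were lower and 0 higher, against 6.02% of all genes that were lower. DESeq2 gave an adjusted p to 29 of the 48 and called 1, KRR1, against 3.29% of the 1156 genes to which it gave an adjusted p that were called lower, and limma-voom called 0. DESeq2 without its filter on low counts called 0 of the 48, against 0.699% of 6153 genes, and limma-voom called 0% of all genes. In 8 of the 48, the 95% interval of the edgeR fold change lay within a 2-fold change in either direction, as it did in 640 of all 5181 genes. RNA was measured in bulk, so fewer cells with these mRNAs and less of them per cell cannot be told apart.

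The difference was larger against the first 25°C library than against the second. Of the 48 genes, 36 were higher in the first 25°C library than in the second (median difference 0.49 on the log2 CPM scale, against −0.12 for all genes). All 36 had a fold change below 0 at 37°C against 25°C, with a median of −0.60, and the other 12, whose median was 0.042, held the 7 fold changes above 0. Across the 48 genes, the fold change and the difference between the 25°C libraries had a Spearman correlation of −0.75 (−0.54 across 5181 genes), where both measures use the same 25°C libraries and genes are not replicates. Without the first 25°C library, the edgeR median was −0.33, against 0.01 for all genes, and 4 of the 48 were lower at an unadjusted p below 0.05, against 3.98% of all genes, with 0 called. Without the second, the median was −0.79, against 0.20 for all genes, 23 were lower at such a p, and edgeR called 5 (KRR1, NAN1, NOP56, RRP3, and RRP7), where 15.3% of all genes were lower at such a p and 6.67% were called. Set against the second 25°C library alone, both 37°C libraries were lower in 37 of the 48 genes, against 39.7% of all genes. With at least 10 counts required in every library, 45 of the 48 remained, with a median of −0.22, against 0.07 for the 2818 genes tested. The difference between the median of the 48 genes and that of all genes was −0.29 with this filter, against −0.59 in the main fit. The filter changes both the genes compared and the genes used for TMM, and their parts were not tested.

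**Figure D2:**
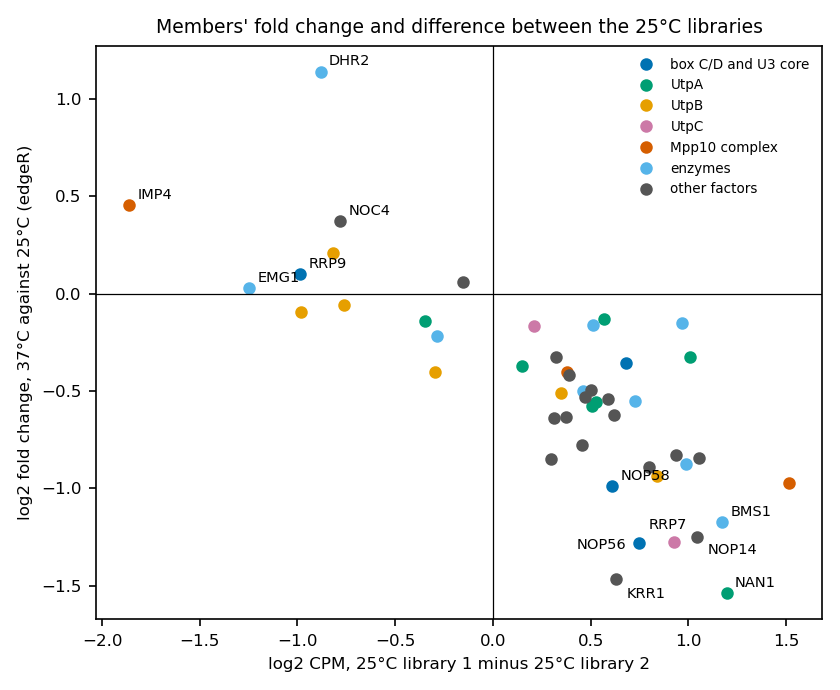
Log2 fold change at 37°C against 25°C (edgeR, vertical axis) of the 48 genes plotted against the difference in log2 CPM between the first and second 25°C libraries (horizontal axis), with points coloured by complex or role. The 36 genes that were higher in the first 25°C library all lie below 0 on the vertical axis, and the 7 genes above 0 all lie left of 0 on the horizontal axis.

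The 37°C levels also lay slightly below those at 30°C. The median log2 fold change was −0.22, against −0.01 for all genes, and 41 of the 48 were below 0, as were 51.3% of all genes. Both 37°C libraries were below both 30°C libraries in 19 of the 48, against 20.2% of all genes, and above both in 0, against 24.2% of all genes. edgeR called 0 of the 48 and 0% of all genes, with 0 of the 48 at an unadjusted p below 0.05 in the lower direction, against 2.41% of all genes. DESeq2 called 0 of the 48, against 0.244% of 6153 genes, and limma-voom called 0 of the 48 and 0% of all genes. In 17 of the 48, the 95% interval lay within a 2-fold change, as it did in 1048 of all 5181 genes. Scaling by total counts moved the median of all genes to 0.23 and that of the 48 to 0.01, so the direction of the members' median flips under that scaling while it stays 0.21 below the median of all genes.

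Between growth at 30°C and growth at 25°C, the median log2 fold change of the 48 was −0.31, against 0.08 for all genes. Of the 48, 37 were below 0, against 43.9% of all genes, and the values ran from −1.11 to 0.97. Both 30°C libraries were below both 25°C libraries in 13, against 10.4% of all genes. edgeR called 0 of the 48 and 0% of all genes, with 0 of the 48 at an unadjusted p below 0.05, against 0.309% of all genes that were lower. DESeq2 and limma-voom also called 0 of the 48 and 0% of all genes. Without the first 25°C library the median was −0.087, and without the second it was −0.55. The 3 comparisons share libraries, so they are not independent of each other.

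Over all 6 libraries, 17 of the 48 had both 37°C libraries below each of the 4 libraries grown at 25°C and 30°C, against 12.3% of all genes. These were NOP56, NOP58, UTP4, UTP8, UTP9, PWP2, UTP21, RRP7, RRP3, KRR1, RRP5, NOP9, UTP20, UTP23, ENP2, SOF1, and SAS10. They include members of the box C/D core, UtpA, UtpB, and UtpC, 1 helicase, and 8 of the remaining factors, and none is of the Mpp10 complex.

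**Figure D3:**
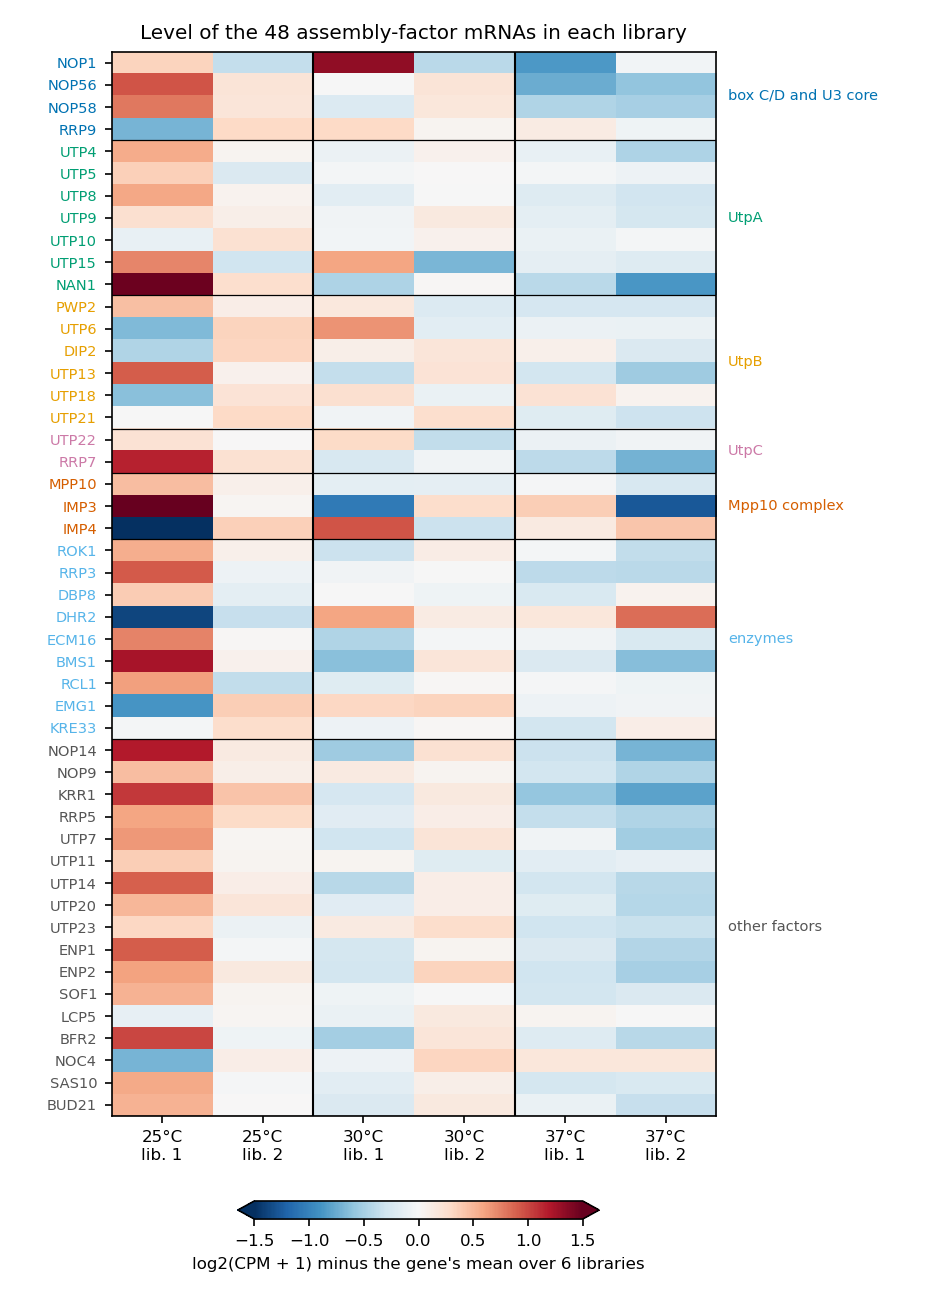
Level of each of the 48 mRNAs (rows, grouped by complex or role) in each of the 6 libraries (columns), as log2(CPM + 1) minus the mean of the gene over the 6 libraries, with the colour scale clipped at −1.5 and 1.5. Red (above the mean) fills much of the first 25°C column, where 36 of the 48 genes were higher than in the second, and blue (below the mean) prevails in the 37°C columns.

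The 4 proteins of the box C/D core and U3 had a median log2 fold change of −0.67 against 25°C, with 3 of 4 below 0, and −0.61 against 30°C, with 4 of 4 below 0. NOP56 (YLR197W), a scaffold protein of box C/D particles, had 372 and 412 CPM in the 37°C libraries, against 1201 and 714 CPM in the 25°C libraries and 618 and 710.0 CPM in the 30°C libraries. The 37°C libraries were below all 4 others. The log2 fold change was −1.28 ± 0.39 (SE) against 25°C, with an edgeR adjusted p of 0.285, and −0.76 ± 0.38 against 30°C, with an adjusted p of 0.774. Its partner NOP58 (YOR310C) had 816 and 788 CPM at 37°C, against 1928 and 1261 CPM at 25°C and 964 and 1252 CPM at 30°C. Here too the 37°C libraries were the lowest of the 6, and the fold changes were −0.99 ± 0.39 against 25°C and −0.47 ± 0.39 against 30°C.

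NOP1 (YDL014W), the fibrillarin methyltransferase that modifies rRNA in these particles, had 47.8 and 85.1 CPM at 37°C, against 111 and 68.4 CPM at 25°C and 222 and 66.3 CPM at 30°C. Its first 30°C library stood far above its second, and the 37°C values overlapped those at 25°C and at 30°C. The log2 fold change was −0.36 ± 0.64 against 25°C, or −0.070 without the first 25°C library, and −1.12 ± 0.60 against 30°C, with an edgeR adjusted p of 0.799 in the second. RRP9 (YPR137W), the protein particular to U3 among the box C/D RNAs, had 198 and 174 CPM at 37°C, against 111 and 223 CPM at 25°C and 223 and 186 CPM at 30°C. All groups overlapped, and its fold changes were 0.10 ± 0.38 against 25°C and −0.14 ± 0.37 against 30°C. Without the first 25°C library, in which RRP9 had 19 counts, the fold change against 25°C was −0.30.

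UtpA is the complex that binds the 5′ end of the precursor first, and its 7 genes all had fold changes below 0 against both 25°C (median −0.37) and 30°C (median −0.26). NAN1 (YPL126W), also called UTP17, had 58.4 and 42.1 CPM at 37°C, against 217 and 93.2 CPM at 25°C and 56.2 and 79 CPM at 30°C. The first 25°C library was the highest, the 37°C libraries were below both 25°C libraries, and they overlapped the 30°C libraries. The log2 fold change was −1.54 ± 0.48 against 25°C, the lowest of the 48, with an edgeR adjusted p of 0.289, and −0.93 without the first 25°C library. UTP8 (YGR128C) had 174 and 164 CPM at 37°C, against 299 and 207 CPM at 25°C and 179 and 199 CPM at 30°C, and UTP4 (YDR324C) had 215 and 168 CPM at 37°C, against 339.9 and 238 CPM at 25°C and 218 and 241 CPM at 30°C. Both genes were lowest in the 37°C libraries, with fold changes against 25°C of −0.56 ± 0.31 for UTP8 and −0.58 ± 0.33 for UTP4, or −0.32 for UTP8 and −0.35 for UTP4 without the first 25°C library. The remaining members, UTP5 (YDR398W), UTP9 (YHR196W), UTP10 (YJL109C), and UTP15 (YMR093W), had fold changes against 25°C between −0.37 and −0.13. UTP10 was nearly level, with 461 and 483 CPM at 37°C, against 457 and 582 CPM at 25°C and 479 and 517 CPM at 30°C.

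UtpB joins with U3, and 5 of its 6 genes were below 0 in both comparisons with 37°C. UTP13 (YLR222C) had 472 and 395 CPM at 37°C, against 1072 and 598 CPM at 25°C and 446 and 659 CPM at 30°C, and PWP2 (YCR057C) had 93.5 and 93.5 CPM at 37°C, against 152 and 119 CPM at 25°C and 124 and 96 CPM at 30°C. In UTP13 the first 25°C library stood apart and the 37°C values overlapped those at 30°C, whereas in PWP2 the 37°C libraries were lowest by a narrow margin. The fold changes against 25°C were −0.94 ± 0.42 for UTP13, which was −0.50 without the first 25°C library, and −0.51 ± 0.31 for PWP2. UTP21 (YLR409C) had 418 and 384 CPM at 37°C, against 475 and 584 CPM at 25°C and 459 and 565 CPM at 30°C, with a fold change of −0.40 ± 0.33 against 25°C. It is 1 of the genes in which the first 25°C library was below the second. DIP2 (YLR129W), UTP6 (YDR449C), and UTP18 (YJL069C) had fold changes against 25°C between −0.10 and 0.21, and all 3 had their lowest level in the first 25°C library.

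UtpC and the Mpp10 complex bind later in the folding of the precursor. RRP7 (YCL031C), which pairs with UTP22 in UtpC, had 114 and 90.7 CPM at 37°C, against 334 and 175 CPM at 25°C and 126 and 144 CPM at 30°C. The 37°C libraries were the lowest, the 25°C libraries the highest, and the log2 fold change was −1.28 ± 0.39 against 25°C (edgeR adjusted p = 0.286) and −0.40 ± 0.38 against 30°C. Without the first 25°C library, the fold change against 25°C was −0.81. UTP22 (YGR090W) had 133 and 136 CPM at 37°C, against 164 and 142 CPM at 25°C and 173 and 109 CPM at 30°C, with a fold change of −0.17 ± 0.33 against 25°C that turned to 0.078 when libraries were scaled by total counts and was −0.10 without the first 25°C library.

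MPP10 (YJR002W), the scaffold of the Mpp10 complex, had 324 and 277 CPM at 37°C, against 451 and 347 CPM at 25°C and 296 and 299 CPM at 30°C. The 37°C values lay below those at 25°C and around those at 30°C, with a fold change of −0.40 ± 0.31 against 25°C, or −0.24 without the first 25°C library. IMP3 (YHR148W) and IMP4 (YNL075W) help U3 pair with the precursor. IMP3 had the fewest counts of the 48, with 13 and 4 counts at 37°C, against 6 and 9 counts at 25°C and 4 and 9 counts at 30°C, so its fold change of −0.97 against 25°C had a 95% interval of −3.11 to 1.14, and it was −0.34 without the first 25°C library. IMP4 had 151 and 183 CPM at 37°C, against 46.9 and 177 CPM at 25°C and 265 and 110.1 CPM at 30°C. All its groups overlapped, its first 25°C library held 8 counts, and the fold change of 0.45 ± 0.61 against 25°C became −0.11 without that library.

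**Figure D4:**
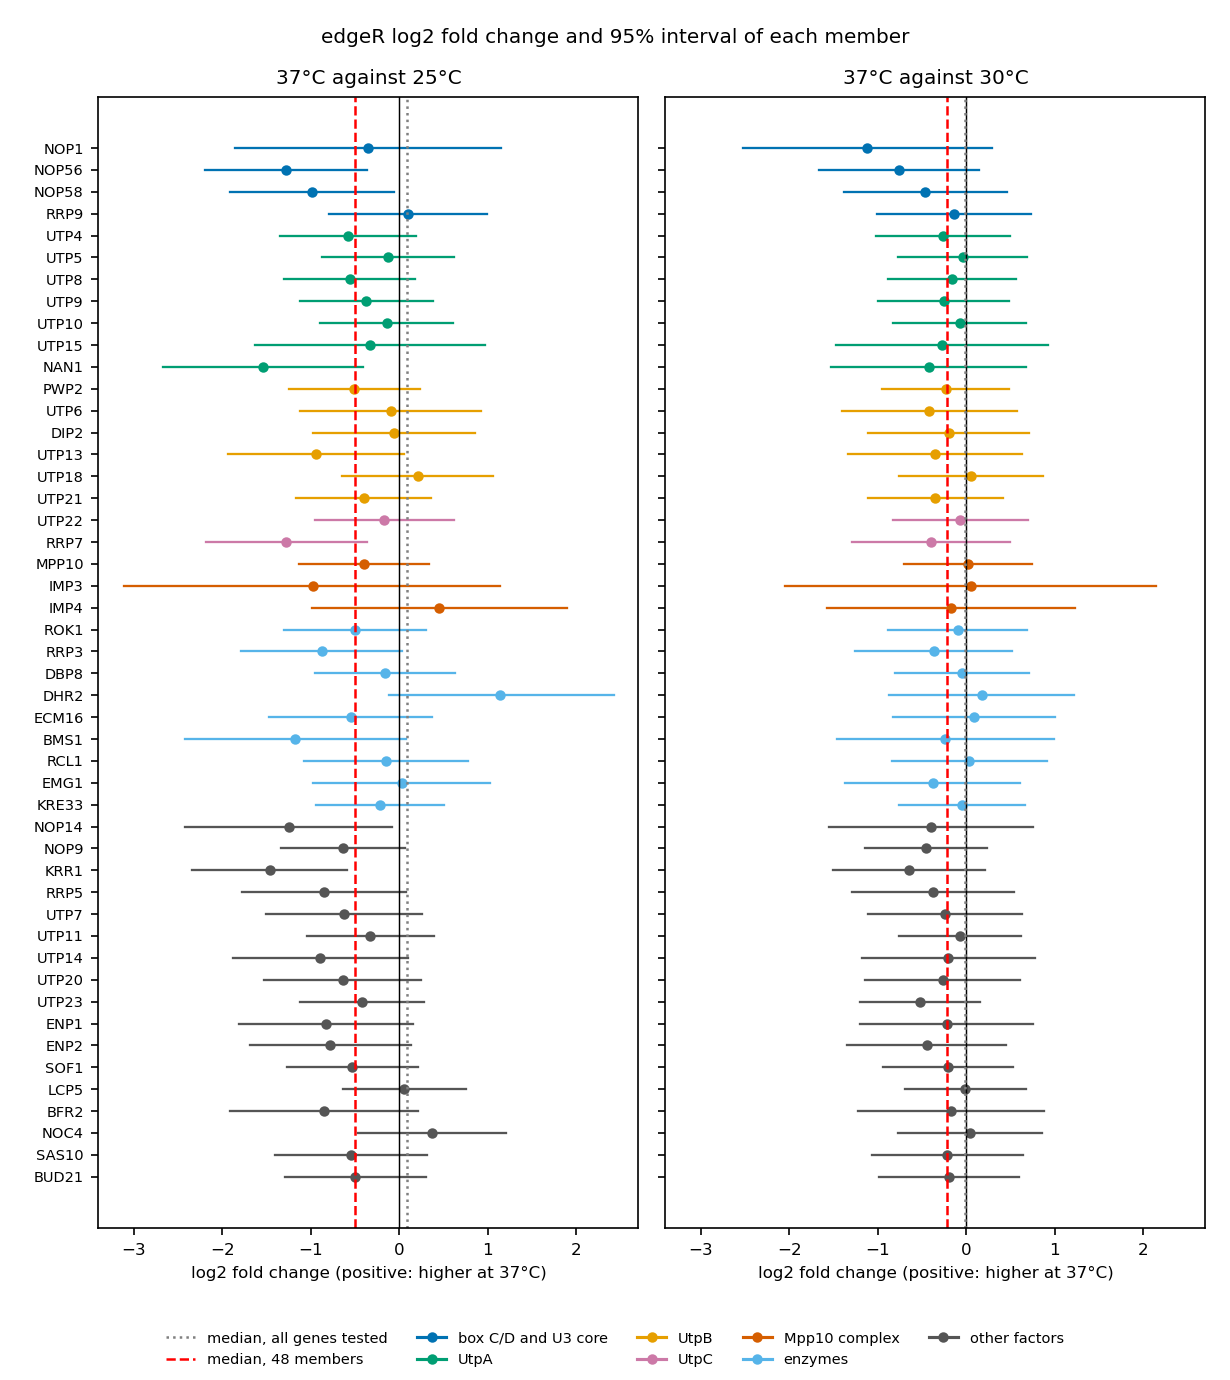
edgeR log2 fold change of each gene (points) with its 95% interval (lines) at 37°C against 25°C (left) and at 37°C against 30°C (right), coloured by complex or role. The dashed line marks the median of the 48 genes (−0.51 and −0.22) and the dotted line the median of all 5181 genes tested (0.09 and −0.01), and the intervals of most genes cross 0.

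The 9 genes of helicases, other enzymes, and an enzyme partner had a median log2 fold change that was small in both comparisons. The median fold change was −0.22 against 25°C and −0.051 against 30°C. BMS1 (YPL217C), the GTPase of the processome, had 1024 and 763 CPM at 37°C, against 2801 and 1243 CPM at 25°C and 767 and 1342 CPM at 30°C. The first 25°C library was more than 2-fold above the second, the 37°C and 30°C values overlapped, and the fold change was −1.17 ± 0.53 against 25°C, or −0.51 without the first 25°C library. RRP3 (YHR065C), a DEAD-box helicase, had 165 and 163 CPM at 37°C, against 410.2 and 205 CPM at 25°C and 208 and 215 CPM at 30°C. Its 37°C libraries were the lowest, with a fold change of −0.88 ± 0.38 against 25°C that was −0.36 without the first 25°C library.

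Among the DEAH-box helicases, ECM16 (YMR128W), also called DHR1, which removes U3 from the precursor, had 609.7 and 539 CPM at 37°C, against 1055 and 637 CPM at 25°C and 463 and 618 CPM at 30°C. It lay below both 25°C libraries and within the range of the 30°C libraries, with fold changes of −0.55 ± 0.39 against 25°C and 0.088 ± 0.39 against 30°C. Without the first 25°C library, the value against 25°C was −0.18. DHR2 (YKL078W) had 18 and 33 counts at 37°C, against 1 and 11 counts at 25°C and 23 and 13 counts at 30°C. It had the highest fold change of the 48 in both comparisons, 1.14 (95% interval −0.12 to 2.42) against 25°C, with an edgeR adjusted p of 0.393, and 0.17 ± 0.44 against 30°C. The helicases ROK1 (YGL171W) and DBP8 (YHR169W), the BMS1 partner RCL1 (YOL010W), the methyltransferase EMG1 (YLR186W), and the acetyltransferase KRE33 (YNL132W) had fold changes against 25°C between −0.50 and 0.027.

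The 17 remaining factors held the gene with the smallest p of the 48. KRR1 (YCL059C), a KH-domain RNA-binding protein of the processome, is encoded at chrIII:22429-23379 on the minus strand. It had 273 and 234 CPM at 37°C, against 856 and 552 CPM at 25°C and 342 and 452 CPM at 30°C. The 37°C libraries were the lowest, the 25°C libraries the highest, and no temperature overlapped another. The log2 fold change against 25°C was −1.47 ± 0.37, with an unadjusted p of 0.00526 and an adjusted p of 0.241 in edgeR. DESeq2 gave an adjusted p of 0.0332, and the range over all tools and settings tried was 0.0332 to 0.999. DESeq2 without the first 25°C library did not call it, and the edgeR fold change was −1.16 without that library. Against 30°C the fold change was −0.65 ± 0.36, with an edgeR adjusted p of 0.821.

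NOP14 (YDL148C), which works with NOC4, had 722 and 553 CPM at 37°C, against 2051 and 994 CPM at 25°C and 622 and 1060.1 CPM at 30°C. The first 25°C library was again the highest, and the fold changes were −1.25 ± 0.50 against 25°C, −0.67 without that library, and −0.40 ± 0.49 against 30°C. RRP5 (YMR229C), an RNA-binding protein needed for both subunits, had 1859 and 1750.2 CPM at 37°C, against 3593 and 2928 CPM at 25°C and 2126 and 2566 CPM at 30°C. Its 37°C libraries were the lowest of the 6, with a fold change of −0.85 ± 0.39 against 25°C.

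Of the 14 others in that group, 12 had fold changes below 0 against 25°C. UTP14 (YML093W), the cofactor that activates the helicase ECM16, BFR2 (YDR299W) and ENP2 (YGR145W), which bind each other, ENP1 (YBR247C), which stays on the particle into the cytoplasm, the very large UTP20 (YBL004W), the Pumilio-repeat protein NOP9 (YJL010C), and the WD-repeat protein UTP7 (YER082C) lay between −0.89 and −0.62. SAS10 (YDL153C), the WD-repeat protein SOF1 (YLL011W), BUD21 (YOR078W), also called UTP16, UTP23 (YOR004W), which helps release a small nucleolar RNA, and UTP11 (YKL099C) lay between −0.54 and −0.33. LCP5 (YER127W), a partner of BFR2 and ENP2, and NOC4 (YPR144C), the partner of NOP14, were above 0, and NOC4 was lowest in the first 25°C library, with 204 and 204 CPM at 37°C, against 111 and 194 CPM at 25°C. Over the 48 genes, 6 had a fold change below −1 against 25°C (KRR1, NAN1, NOP56, RRP7, NOP14, and BMS1), against 5.89% of all genes.

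The share of each library's gene counts held by the 48 genes sums their levels without TMM. It was 1.89% (95% Wilson interval 1.86 to 1.92) and 1.72% (1.69 to 1.74) in the 37°C libraries, against 2.83% (2.75 to 2.90) and 2.09% (2.06 to 2.12) in the 25°C libraries and 1.57% (1.54 to 1.59) and 2.18% (2.15 to 2.22) in the 30°C libraries. The intervals cover counting error only. Both 37°C shares were below both 25°C shares and between the 2 shares at 30°C, and the 30°C libraries differed from each other by more than the 37°C libraries did from either. The share of the 40S ribosomal protein genes was 4.40% and 4.73% at 37°C, against 3.50% and 6.68% at 25°C and 8.75% and 4.84% at 30°C. The library with the lowest share for ribosomal proteins, the first at 25°C, had the highest for the 48 genes, and the library with the highest, the first at 30°C, had the lowest. Both are shares of the same total, so a higher share of ribosomal protein genes lowers that of the 48. With ribosomal protein genes left out, the first 25°C library stayed highest, and the second 37°C library (1.96%) was below the first at 30°C (2.02%).

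**Figure D5:**
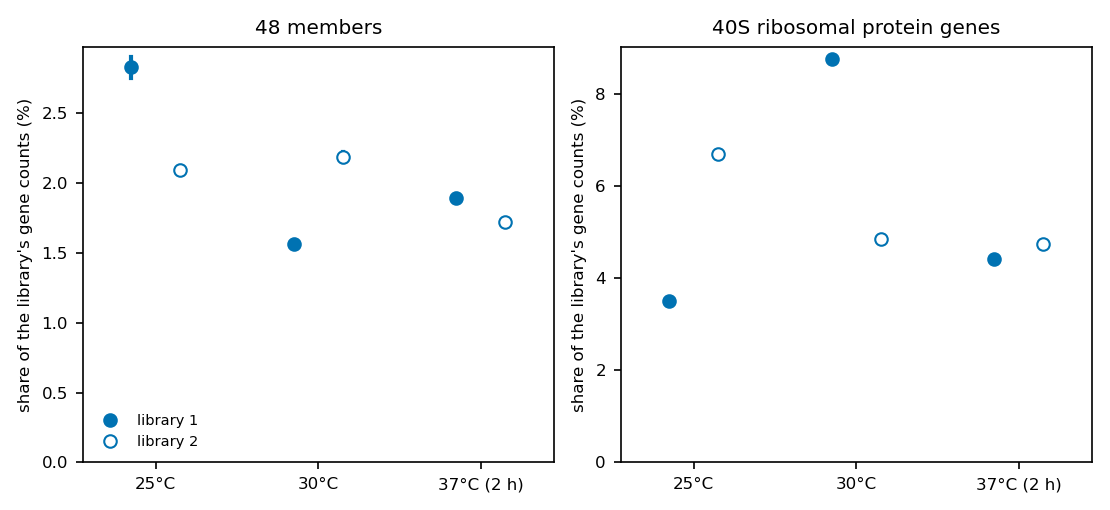
Share of the counts in genes (vertical axis, %) held by the 48 assembly-factor genes (left) and by the 40S ribosomal protein genes (right) in the first (filled) and second (open) library at each temperature, with 95% Wilson intervals on the left, most of which are smaller than the points. The 37°C libraries sit at 1.89% and 1.72% on the left, below both 25°C libraries and between those at 30°C.

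A base-composition measure that moves with the libraries was computed after the values had been seen. The libraries prime on poly(A), and the largest number of A bases in any 20-base window of the coding strand was 12 to 16 in the 48 genes (median 14) and 4 to 20 (median 13) in 5173 genes tested and matched. Windows of 3 genes are shown 5′ to 3′ with every A in capitals.
NOP58 coding window, chrXV:896996-897015, minus strand: AAgAAAAgAAAgAAAAgAAA
RRP5 coding window, chrXIII:729304-729323, minus strand: AAAAAtAtcAAAgAAAAAAA
NOP1 coding window, chrIV:428038-428057, plus strand: AcAcccAcAAAAAtAcAgAA
They lie in the single coding exon of each gene and hold 16, 16, and 12 A bases. Across all genes, this number had a Spearman correlation of 0.35 with the difference between the first and second 25°C libraries, −0.35 with that between the 30°C libraries, and 0.17 with that between the 37°C libraries. Across the 48 genes, the values were 0.12 at 25°C, −0.36 at 30°C, and 0.15 at 37°C. With the fold change at 37°C it was −0.29 across the 48 genes against 25°C and −0.16 against 30°C, and −0.22 and 0.075 across all genes. Genes are not replicates and share libraries, and the part of A content in the results was not tested.

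Promoter letters and fold changes were set side by side. The 34 genes with both motifs had a median log2 fold change of −0.53 against 25°C and −0.24 against 30°C, and the 14 without both had medians of −0.33 and −0.15. RRP7, with RRPE letters alone, was among the 4 lowest of the 48 against 25°C, and IMP4, with both motifs, was among the 2 highest.

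Genes of neighbouring steps were counted from lists chosen by function. Of 20 further processome factors, 16 had a fold change below 0 against 25°C (median −0.43), and 0 were called by edgeR or DESeq2. At an unadjusted p below 0.05 in edgeR, 1 was lower and 1 higher, against 312 lower and 390 higher of all 5181 genes. NOP6 (YDL213C), an RNA-binding factor of the early particle, had 763 and 570.3 CPM at 37°C, against 2420.4 and 999 CPM at 25°C and 690.4 and 1187 CPM at 30°C, with the first 25°C library highest. Of 15 late 40S maturation factors, 9 were below 0 (median −0.18), with 1 lower at such a p and 0 called. TSR2 (YLR435W), a chaperone of the ribosomal protein Rps26, had 133 and 99.1 CPM at 37°C, against 357 and 224 CPM at 25°C and 177 and 212 CPM at 30°C, lowest in the 37°C libraries.

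The 62 assembly factors of the 60S subunit had a median fold change of −0.77 against 25°C and −0.33 against 30°C, with 56 and 54 of 62 below 0. Of them, 20 were lower at an unadjusted p below 0.05 against 25°C in edgeR, against 6.02% of all genes, and 0 were called by edgeR. DESeq2 called 2 lower of the 45 to which it gave an adjusted p, against 3.29% of 1156 such genes. The first 25°C library was again the highest, with 4.86% of its gene counts in the 62 genes, against 3.13% in the second. The share was 2.34% and 3.33% at 30°C and 2.77% and 2.48% at 37°C. NOP7 (YGR103W), of the complex that processes the 60S rRNA precursor, had 646 and 575 CPM at 37°C, against 2391 and 1277 CPM at 25°C and 895 and 1118 CPM at 30°C, with the 37°C libraries the lowest. Among 15 tested genes of RNA polymerase I and its factors, 12 were below 0 against 25°C (median −0.26), and 0 were called. At an unadjusted p below 0.05 in edgeR, 3 of them were lower, against 6.02% of all genes. RPA49 (YNL248C), a subunit of that polymerase, had 126 and 130.0 CPM at 37°C, against 293 and 231 CPM at 25°C and 181 and 226 CPM at 30°C, again lowest at 37°C.

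The 56 genes of 40S ribosomal proteins had medians that differed in pattern from those of the factors that assemble them, but libraries of the same temperature disagreed. Their median fold change was −0.24 against 25°C, with 35 below 0, and −0.89 against 30°C, with 55 below 0, while at 30°C against 25°C it was 0.64, with 44 above 0. Their shares of gene counts were 3.50% and 6.68% at 25°C and 8.75% and 4.84% at 30°C. At 37°C the shares were 4.40% and 4.73%, between those at 25°C and just below the second at 30°C. The medians of this list were not recomputed with libraries left out. DESeq2 called 6 of the 56 genes lower against 25°C, where 47 had an adjusted p, against 3.29% of 1156 such genes among all genes. edgeR called 0 of the 56 in any comparison. RPS8B (YER102W) had 337 and 335 CPM at 37°C, against 1272 and 812 CPM at 25°C and 929 and 778 CPM at 30°C, where reads of its near-identical copy RPS8A are lost if they map to both.

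The 12 regulators of ribosome biogenesis genes had a median fold change of 0.11 against 25°C and 0.27 against 30°C, with 0 called. At an unadjusted p below 0.05 in edgeR, 1 was higher in each comparison, against 390 and 241 of all 5181 genes. That gene was CRF1 (YDR223W), known as a corepressor of ribosomal protein genes, which had 85 and 37.4 CPM at 37°C, against 5.86 and 15.3 CPM at 25°C and 16.9 and 32.5 CPM at 30°C. Its 37°C libraries were above all 4 others, and its 5.86 CPM in the first 25°C library was the worth of 1 count.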

How the data were processed

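Gene counts were deposited as 1 table with a column for each library. The authors' submission notes list STAR 2.7.10a, HTSeq 2.0.2, and UMI-tools 1.0.1, with DESeq2 1.38.2 and genome build R64. Their methods describe trimming, molecular identifiers, and the counting mode for the pull-down sequencing only, so for total RNA the strand setting is not stated, and reads of overlapping or antisense genes cannot be told apart. The annotation used here holds no untranslated regions, and 41.1% to 47.9% of reads in each library were assigned to no gene. The 5 summary entries of the table, which name no gene, were left out of library sizes. A second deposited table, of normalized counts, was not used.

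Counts were normalized by TMM, filtered with filterByExpr, and tested with edgeR 4.0.16 (quasi-likelihood, R 4.3.3) over all 6 libraries with a term for temperature. A gene was called at a Benjamini-Hochberg adjusted p below 0.05 and an absolute log2 fold change above 1. The 95% intervals use the moderated error of that test. DESeq2 1.42.0 and limma 3.58.1 (voom) were alternatives, beside other filters, scalings, and left-out libraries. p-values measure the spread between 2 cultures a temperature. The code was tested on simulated counts.

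The members and all gene lists were chosen with earlier results of these data known, so counts over them are descriptions. Genes named with values in each library were NOP1, NOP56, NOP58, RRP9, up to 3 genes in each complex or role with the smallest p at 37°C against 25°C, any gene called by edgeR or DESeq2, the 2 with the highest fold changes in each comparison with 37°C, and at most 3 in each other list. Values quoted for UTP10 and NOC4 were added after their values were seen. Sequences were read from the RefSeq R64 genome with Python 3.11.15 and biopython 1.88.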

Additional observations from a re-analysis of the deposited data

How the results depend on the processing

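The counts called, the counts lower at an unadjusted p below 0.05, and the medians over the 48 genes were recomputed under each alternative, as were the fold changes of the genes named by rule (against 30°C, of 10 of them). Medians by complex and the other lists were not. Of 508 alternative fold changes, leaving out the settings that do not refit them, 496 kept the sign reported, and the alternatives share libraries. At 37°C against 25°C, DESeq2 called 1 of the 48 (KRR1), against 0.861% of all genes. At an unadjusted p below 0.05, 10 were lower in DESeq2, with its independent filtering or without (5.12% of all genes), and 10 in limma-voom (6.35%). Against 30°C, 3 were lower at such a p when only 37°C and 30°C libraries were fitted (5.98% of all genes). At 30°C against 25°C, 1 was lower in limma-voom (0.251% of all genes), with DESeq2 size factors (0.367%), and with no filter (0.423%). Scaling by total counts gave medians of −0.26 at 37°C against 25°C and 0.011 against 30°C, and fold changes of 0.078 for UTP22 against 25°C and 0.10 for RRP9 against 30°C. With at least 10 counts in every library the medians were −0.22 (37°C against 25°C) and −0.11 (30°C against 25°C), and UTP22 stood at 0.11 against 25°C. The longer motif forms GATGAGAT and TGAAAAATT, on both strands, were found together in 27.1% of the 48 promoters, against 0.817% of all. The causes were not tested.

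With the replicate block, medians were −0.51 for 37°C against 25°C, −0.22 for 37°C against 30°C, and −0.30 for 30°C against 25°C, and edgeR called 0 of the 48 in each. Deviations of same-numbered libraries correlated at 0.28, −0.40, and −0.53 in those comparisons. The sign was not the same in each, and whether the numbers mark libraries handled together cannot be told from these values. A replicate block with the 30°C numbers crossed, added after the data were seen, left 14 lower at an unadjusted p below 0.05 in the first of them (9.19% of all genes) and 6 in the last (2.1%), with 0 of the 48 and 10 of all genes called in the first.

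Leaving out 1 library at a time gave medians of −0.79 to −0.33 for 37°C against 25°C, −0.36 to −0.12 for 37°C against 30°C, and −0.55 to −0.087 for 30°C against 25°C. edgeR then called 0 to 5 of the 48 in the first comparison, and genes lower at an unadjusted p below 0.05 numbered 0 to 23, 0 to 3, and 0 to 12 in those comparisons. The highest counts came without the second 25°C library, where 6.67% of all genes were called in the first comparison and 15.3%, 5.91%, and 10.4% were lower at such a p (for the 3 against 30°C, also without the first, with 5.87%). Such fold changes against 25°C ran from −0.30 to 0.70 for RRP9 and from −0.11 to 1.79 for IMP4, and against 30°C from −0.22 to 0.47 for DHR2, −0.76 to 0.034 for NOP14, and −0.13 to 0.31 for ECM16. DESeq2 without the first 25°C library gave medians of −0.31 (37°C against 25°C) and −0.083 (30°C against 25°C), with 2 lower at an unadjusted p below 0.05 in the first of these (1.58% of all genes) and 1 between 37°C and 30°C (3.3%), and fold changes against 25°C of −0.28 for RRP9 and −0.10 for IMP4. A group left with 1 library was assumed to vary like the others. With 184456 counts in genes in the first 25°C library, small changes in the scarcer genes were not detectable.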
